A study of Mus musculus with 36 samples.

Results

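The miR-130 and miR-301 family was followed in mouse CD4 T cells that lacked Argonaute proteins, through 6 mature microRNAs (miRNAs) taken by name from the count tables. These 6 of 1966 mature names were the 3p strands mmu-miR-130a-3p, mmu-miR-130b-3p, mmu-miR-301a-3p and mmu-miR-301b-3p and the 5p strands mmu-miR-130b-5p and mmu-miR-301a-5p, written below without the species prefix. Small RNA was sequenced in 36 libraries of C57BL/6J cells, sorted from spleen as CD4+ TCRb+ T cells, and the labels give no ages. The AGO1/3/4 experiment set AGO134-/- cells (AGO134 knockout, without AGO1, AGO3 and AGO4) against littermate wild-type (WT) cells. It held naive cells (4 knockout and 4 WT libraries), T helper 2 (Th2) cultures at day 7 (4 and 4) and Th2 cultures at day 14 (3 and 3). The AGO2 experiment set CD4Cre;R26LSLeYFP;AGO2f/f cells (AGO2 knockout) against CD4Cre;R26LSLeYFP cells (Cre), in naive cells (4 and 3) and in Th2 culture (4 and 3). Both of its genotypes carried the Cre, driven in T cells by Cd4 sequences, and the eYFP reporter, so that the floxed Ago2 allele is the difference between them. The sample labels put its Th2 cultures at day 5, whereas the series text names day 7. Argonaute mRNAs are not in miRNA counts, so the genotypes could not be checked here. The labels do not say whether replicate libraries came from different mice, so each p-value reflects variation among libraries, which may be technical.

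A miRNA is cut from a hairpin as a duplex, of which one strand, the guide, is usually kept by an Argonaute protein and the other, the passenger, is mostly lost. A guide finds its target mRNAs through its seed, bases 2 to 8 from its 5′ end, so miRNAs with one seed share many predicted targets. In the family the 3p strands are the usual guides. In mouse CD8 T cells the family is known to rise on activation and to repress Cd69, an early activation marker, and in mouse Th17 cells miR-301a is known to act on Pias3, an inhibitor of STAT3.

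Mature sequences were found for 5 of the 6 members in RefSeq (GRCm38.p6). They are shown because the seed, in capitals, separates the 3p guides, which share one, from the 5p strands, which have one each.
mmu-miR-130a-3p: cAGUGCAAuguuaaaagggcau
mmu-miR-130b-3p: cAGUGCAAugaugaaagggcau
mmu-miR-301a-3p: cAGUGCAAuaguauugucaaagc
mmu-miR-130b-5p: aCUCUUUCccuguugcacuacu
mmu-miR-301a-5p: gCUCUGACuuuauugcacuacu
Counted from the 5′ end, miR-130a-3p and miR-130b-3p were identical at 20 of 22 bases and differed by U11A and A13G, so that reads of the pair can be told apart only at these bases. miR-130a-3p and miR-301a-3p were identical at 12 of 22 bases. The 3p seed also occurs in miR-130c, miR-721 and miR-6341, which had 0 counts in all 36 libraries, and in miR-6389, which had 2 counts in all. The seed of miR-301a-5p recurs in miR-301b-5p and that of miR-130b-5p in miR-7014-3p.

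The members come from 4 hairpins at 3 places in the genome (GRCm38.p6). Mir130a lies between genes on the minus strand of chromosome 2, at 84741115 to 84741178. Mir301, the hairpin of miR-301a, lies in an intron of Ska2 on the plus strand of chromosome 11, at 87113004 to 87113089. Mir130b (17124061 to 17124142) and Mir301b (17124400 to 17124496) lie 257 bases apart on the minus strand of chromosome 16, in an intron of 2610318N02Rik. The other arms of these hairpins were rare: miR-130a-5p had at most 2 counts in a library and miR-301b-5p at most 6.

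Levels below are CPM, counts per 1000000 miRNA counts of a library after TMM scaling, with SD over libraries. A change was called where the edgeR quasi-likelihood test over all tested miRNAs gave a Benjamini-Hochberg adjusted p under 0.05. Libraries held 64264 to 273724 miRNA counts in the AGO1/3/4 experiment and 596 to 58357 in the AGO2 experiment, so that 1 count weighs far more in the second. Naive Cre libraries B and C stood apart with 596 and 2156 counts. AGO134 knockout libraries were shallower than WT at each stage, with 64264 to 195122 counts in naive knockout cells and 196357 to 243748 in naive WT cells. The STD entries, which name no miRNA, also moved with genotype. They took 46.9% to 56.9% of counts in naive AGO134 knockout libraries and 40.2% to 43.9% in naive WT libraries, and 52.8% to 64.8% in Th2 AGO2 knockout libraries against 32.0% to 38.5% in Th2 Cre libraries. Of 6 T cell markers, such as miR-150-5p and miR-142a-3p, none stood at 0 in any group, and their summed level ran from 19187 to 215724 CPM per library. In naive cells that sum was 140059 to 215724 CPM in AGO134 knockout libraries and 99936 to 121957 CPM in WT libraries. The 3 myeloid markers summed to at most 42.6 CPM in any library. In bulk RNA, fewer cells that make a miRNA and less of it per cell cannot be told apart.

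In naive cells the 4 3p strands differed widely in level, and miR-130b-3p made up nearly all of the family. It averaged 2946 ± 201 CPM in AGO134 knockout cells and 2615 ± 228 CPM in WT cells (n = 4 each). miR-301a-3p came next at 101 ± 15.6 CPM in knockout cells and 105 ± 15.4 CPM in WT cells. miR-130a-3p averaged 22.8 ± 13.5 CPM in knockout cells and 25.1 ± 12.2 CPM in WT cells, and miR-301b-3p 4.69 ± 6.21 CPM in knockout cells and 22.3 ± 11.4 CPM in WT cells. In WT cells the levels of miR-130a-3p and miR-301b-3p lay within each other's spread, whereas miR-130b-3p and miR-301a-3p stood apart from all others. Within the summed 3p counts, miR-130b-3p took 95.8% ± 0.322 in knockout cells and 94.5% ± 0.673 in WT cells. The mature strands with a known sequence are 22 or 23 bases long, so their levels need no length scaling.

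**Figure D1:**
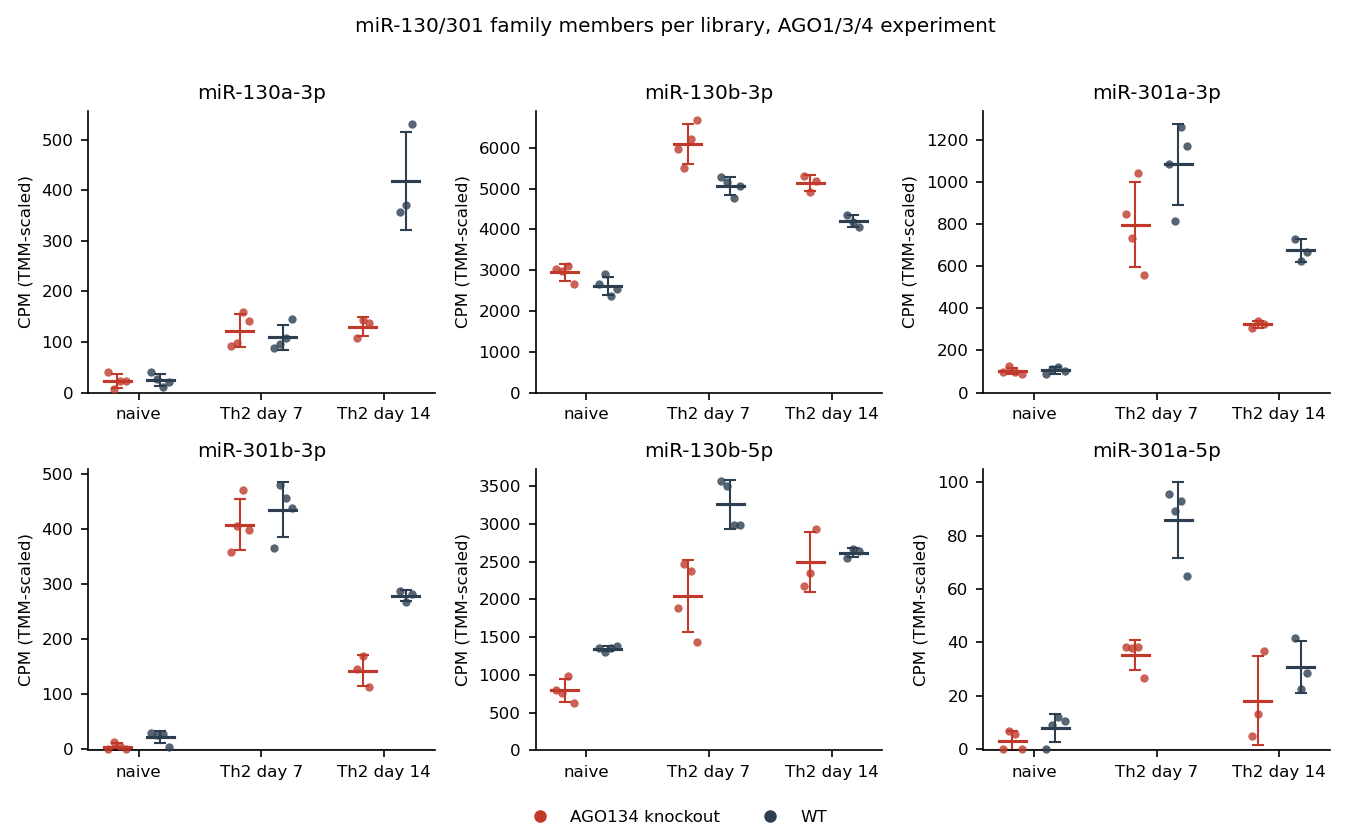
CPM (TMM-scaled) of each family member in every library of the AGO1/3/4 experiment, with AGO134 knockout in red to the left of WT in dark blue at each stage. Points are libraries, horizontal lines means and bars SD. miR-130a-3p at day 14 averaged 130.1 CPM in knockout cells and 419 CPM in WT cells, and miR-130b-5p was below WT in all 4 knockout libraries of naive and day 7 cells.

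All 6 members were higher in WT Th2 cells at day 7 than in naive WT cells, among 39.5% of 382 tested miRNAs called higher. Of these, miR-130a-3p, miR-301a-5p and miR-301b-3p passed the filter on low counts only through Th2 libraries. Their calls are therefore not separate support for a rise. The rise was smallest for the abundant miR-130b-3p and largest for miR-301b-3p and miR-301a. miR-130b-3p had 1271, 1616, 1588 and 1638 counts in day 7 WT libraries, and 713, 658, 599 and 477 counts in naive WT libraries (log2 fold change 0.95, SE 0.10, edgeR adjusted p = 1.58e-09). miR-301a-3p had 261, 256, 420 and 379 counts at day 7 and 23, 25, 31 and 19 in naive cells (3.36, SE 0.19, edgeR adjusted p = 2.26e-15). miR-301b-3p had 88, 151, 152 and 142 counts at day 7 and 8, 6, 7 and 1 in naive cells (4.19, SE 0.24, edgeR adjusted p = 4.53e-15). For each of the 6 members every day 7 library lay above every naive library in CPM. The share of all tested miRNAs that separated in this way was not counted. miR-130a-3p, miR-130b-5p and miR-301a-5p had log2 fold changes of 2.08, 1.27 and 3.41.

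In AGO134 knockout cells, too, all 6 members were higher at day 7 than in naive cells, among 39.8% of tested miRNAs called higher. Again miR-130a-3p and miR-301b-3p passed the filter only through Th2 libraries, and miR-301a-5p only through day 7 WT libraries. The calls of these strands are not separate support for a rise here either. Log2 fold changes were 1.04 for miR-130b-3p, 1.33 for miR-130b-5p, 2.42 for miR-130a-3p and 2.95 for miR-301a-3p. miR-301a-5p had 24 counts over the day 7 knockout libraries and 2 over the naive ones, a ratio per library total with an exact 95% interval of 2.48 to 87.3. miR-301b-3p had 272 counts over the day 7 knockout libraries against 3 over the naive ones, a ratio per library total of 75.6 with an exact 95% interval of 25.6 to 369. That ratio rests on naive knockout libraries 2 and 3, which held 2 and 1 counts, and without library 2 the fitted log2 fold change was 6.89 in place of 5.96. The knockout effect at day 7 minus that in naive cells was called for 0 of the 6 members, with 1 at an unadjusted p under 0.05, and DESeq2 called 0. That difference was called for 2.36% of tested miRNAs.

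Other miRNAs known to be induced on T cell activation mostly rose as well. The lists in this paragraph were chosen with earlier results of these data known, so their changes are not separate support. Of 17 activation-induced miRNAs, 14 were called higher and 2 lower at day 7 against naive in WT cells, with a median log2 fold change of 1.51 against 0.11 over all tested miRNAs. In AGO134 knockout cells 13 were called higher and 1 lower, with a median of 1.34. Of 12 miRNAs known to be lost on activation, such as miR-150-5p and miR-29a-3p, 2 were called higher and 9 lower in WT cells, and 1 higher and 8 lower in knockout cells. Over all 382 tested miRNAs, 292 were called in either direction in WT cells, 151 of them higher. In knockout cells 283 were called, 152 of them higher. Markers of endothelial and stromal cells, a list of 7, moved with culture too, and 2 of the 3 that could be tested were called higher in each genotype. They summed to 679 to 1001 CPM in day 7 knockout libraries and 135 to 579 CPM in naive knockout libraries, and to 882 to 1054 CPM in day 7 WT libraries and 142 to 378 CPM in naive WT libraries. At day 7 miR-145a-5p and miR-214-3p of this list were at 0 in the knockout group and no marker of it was at 0 in the WT group. Red cell and platelet markers, a list of 5, summed to 70.8 to 131 CPM per library at day 7 and 247 to 808 CPM in naive cells, with miR-451a at 0 in both genotypes at day 7. The part of these markers in the family's rise was not tested.

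Between day 7 and day 14 the members of WT cultures parted. miR-130a-3p rose again, among 25.1% of miRNAs called higher, while miR-130b-3p, miR-301a-3p, miR-301a-5p and miR-301b-3p fell, among 24.9% called lower. miR-130a-3p stood at 357, 370.3 and 531 CPM in day 14 WT libraries and at 87.4, 95.6, 108 and 145 CPM in day 7 WT libraries (log2 fold change 1.92, SE 0.22, edgeR adjusted p = 2.04e-08). Every day 14 library lay above every day 7 library. miR-301a-3p stood at 730.3, 624 and 669 CPM at day 14, and at 1086, 816, 1262 and 1170 CPM at day 7 (-0.68, SE 0.17, edgeR adjusted p = 0.00120). miR-301b-3p had a log2 fold change of -0.64 and miR-301a-5p of -1.44. As miR-301a-5p passed the filter on low counts only through day 7 WT libraries, its call is not separate support for a fall. The fall of miR-130b-3p was small (-0.27, SE 0.11, edgeR adjusted p = 0.0386). Its call ended without WT day 7 library 1, 2 or 4 or WT day 14 library 2 or 3 (adjusted p 0.0542 to 0.122), and in 8 of 10 other settings, among them DESeq2 (-0.16, adjusted p 0.172). miR-130b-5p had -0.31 with an adjusted p of 0.0906. Endothelial and stromal markers summed to 529 to 685 CPM in day 14 WT libraries and 882 to 1054 CPM in day 7 WT libraries, and red cell and platelet markers to 156 to 212 CPM at day 14 and 70.8 to 105 CPM at day 7. The part of these markers was not tested.

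In AGO134 knockout cultures no further rise of miR-130a-3p was called. It stood at 109, 143 and 139 CPM in day 14 knockout libraries and at 92.5, 97.3, 159 and 142 CPM in day 7 knockout libraries (log2 fold change 0.10, SE 0.28, edgeR adjusted p = 0.815), and these groups overlapped. miR-301a-3p and miR-301b-3p fell, with log2 fold changes of -1.31 (SE 0.19, edgeR adjusted p = 2.12e-06) and -1.54 (SE 0.21, edgeR adjusted p = 1.10e-06), among 23.3% of miRNAs called lower. miR-130b-3p had -0.25, miR-130b-5p 0.28 and miR-301a-5p -0.87, none of them called. Without day 7 knockout library 2 the value of miR-130b-3p was -0.29 and was called (adjusted p 0.0442), and without day 14 knockout library 4 that of miR-301a-5p was -1.98 and was called (adjusted p 0.0240).

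The genotype comparison asks which members differ in cells without AGO1, AGO3 and AGO4. At day 14, 3 of the 4 3p strands, miR-130a-3p, miR-301a-3p and miR-301b-3p, were lower in AGO134 knockout cells, among 10.7% of tested miRNAs called lower. These 3 calls held in each of the other scalings, filters and tools that were run and without any 1 library. Endothelial and stromal markers summed to 546 to 771 CPM in day 14 knockout libraries and to 529 to 685 CPM in day 14 WT libraries, which overlapped. The 12 miRNAs known to be lost on activation summed to 102813 to 131254 CPM in day 14 knockout libraries and to 82729 to 94547 CPM in day 14 WT libraries, without overlap, and 5 of them were called higher and 0 lower. Of the 17 activation-induced miRNAs 3 were called higher and 2 lower. Over all 382 tested miRNAs 75 were called in either direction, 41 of them lower. The part of these lists in the members' differences was not tested.

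miR-130a-3p averaged 22.8 ± 13.5 CPM in naive AGO134 knockout cells and 25.1 ± 12.2 CPM in naive WT cells, as above, with a log2 fold change of -0.21 (edgeR adjusted p = 0.806). The day 7 means were 123 ± 32.8 CPM in knockout cells and 109 ± 25.5 CPM in WT cells (0.14, edgeR adjusted p = 0.803). At day 14 it had 23, 22 and 34 counts in knockout libraries and 103, 98 and 150 counts in WT libraries. Every knockout library lay below every WT library in CPM at this stage, though the groups overlapped before it. Day 14 means were 130.1 ± 18.6 CPM in knockout cells and 419 ± 96.8 CPM in WT cells (-1.69, SE 0.24, edgeR adjusted p = 6.56e-06). The difference of the effects, day 14 minus day 7, was -1.83 (SE 0.36, edgeR adjusted p = 0.000739), in a contrast where 6.54% of miRNAs were called lower. It kept its sign and call under each alternative scaling, filter, block and left-out library that was run.

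miR-301a-3p had a log2 fold change of -0.01 in naive cells. Its day 7 levels were 849, 735, 1040.5 and 559 CPM in AGO134 knockout libraries and 1086, 816, 1262 and 1170 CPM in WT libraries. These groups overlapped, and the value of -0.43 (SE 0.16) just missed the threshold (edgeR adjusted p = 0.0634). Without WT library 2 or knockout library 1 or 3 it was called, at -0.55 to -0.60 (adjusted p 0.0189 to 0.0353). It was also called lower with DESeq2 size factors (-0.43, adjusted p 0.0468), library size alone (-0.73, adjusted p 0.00765), STD scaling (-1.03, adjusted p 0.00564) and the filter at a mean of 10 CPM (-0.48, adjusted p 0.0480). At day 14 it stood at 307, 338 and 326 CPM in knockout libraries and at 730.3, 624 and 669 CPM in WT libraries. The groups no longer overlapped (-1.06, SE 0.20, edgeR adjusted p = 0.000156).

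miR-301b-3p had 0, 2, 1 and 0 counts in naive AGO134 knockout libraries and 8, 6, 7 and 1 in naive WT libraries, a ratio of 0.212 with an exact 95% interval of 0.0406 to 0.705. The groups overlapped through WT library 4. edgeR called this decrease (adjusted p = 0.0497), and the call ended without WT library 1, 2 or 3 or knockout library 1, 3 or 4 (adjusted p 0.0872 to 0.190). It ended also with DESeq2 (0.0886), with DESeq2 size factors (0.0550), with either other filter (0.0640 and 0.157) and with every library thinned to 64264 counts (0.578). At day 7 its libraries overlapped, with a log2 fold change of -0.09. At day 14 it stood at 147, 169 and 114 CPM in knockout libraries and at 287, 268 and 283 CPM in WT libraries. There every knockout library was below every WT library (-0.99, SE 0.22, edgeR adjusted p = 0.00153). The day 14 effect minus the day 7 effect was -0.89 (edgeR adjusted p = 0.0331). That call ended without any one of 8 libraries, namely WT day 7 libraries 1 and 4, WT day 14 libraries 1, 2 and 3, and knockout day 7 library 3 and day 14 libraries 2 and 4 (-0.67 to -0.89, adjusted p 0.0560 to 0.144). It ended too with library size alone, STD scaling, either other filter, the replicate block and thinning (-0.73 to -0.91, adjusted p 0.0523 to 0.437).

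miR-130b-3p, by far the most abundant member, was not called at any stage. At day 7 it stood at 5976, 5507, 6216 and 6681 CPM in AGO134 knockout libraries and at 5291, 5150, 4770 and 5056 CPM in WT libraries. At day 14 it stood at 5306, 4928 and 5177 CPM in knockout libraries and at 4347, 4191 and 4051 CPM in WT libraries. In these TMM-scaled levels knockout libraries were above WT libraries at both stages without overlap. In CPM without TMM scaling the groups overlapped at both stages. The share of all tested miRNAs that separated in this way was not counted. The log2 fold changes of 0.27 and 0.29 did not pass (edgeR adjusted p = 0.0790 and 0.0791). In naive cells the value was 0.18 (edgeR adjusted p = 0.272). DESeq2 called it higher in naive cells (0.26, adjusted p = 0.0448) and at day 7 (0.27, adjusted p = 0.0249), and edgeR called it at day 7 without knockout library 2 (0.31, adjusted p 0.0498). The sign depended on scaling. With library size alone the values were -0.12 in naive cells and -0.038 at day 7, and with scaling to the STD entries they were -0.59, -0.36 and -0.15 over the stages, of which the naive one was called lower (adjusted p 0.0180). The median of all tested miRNAs also moved with the STD entries, to -0.77, -0.63 and -0.44, and with library size alone, to -0.33, -0.31 and -0.15.

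**Figure D2:**
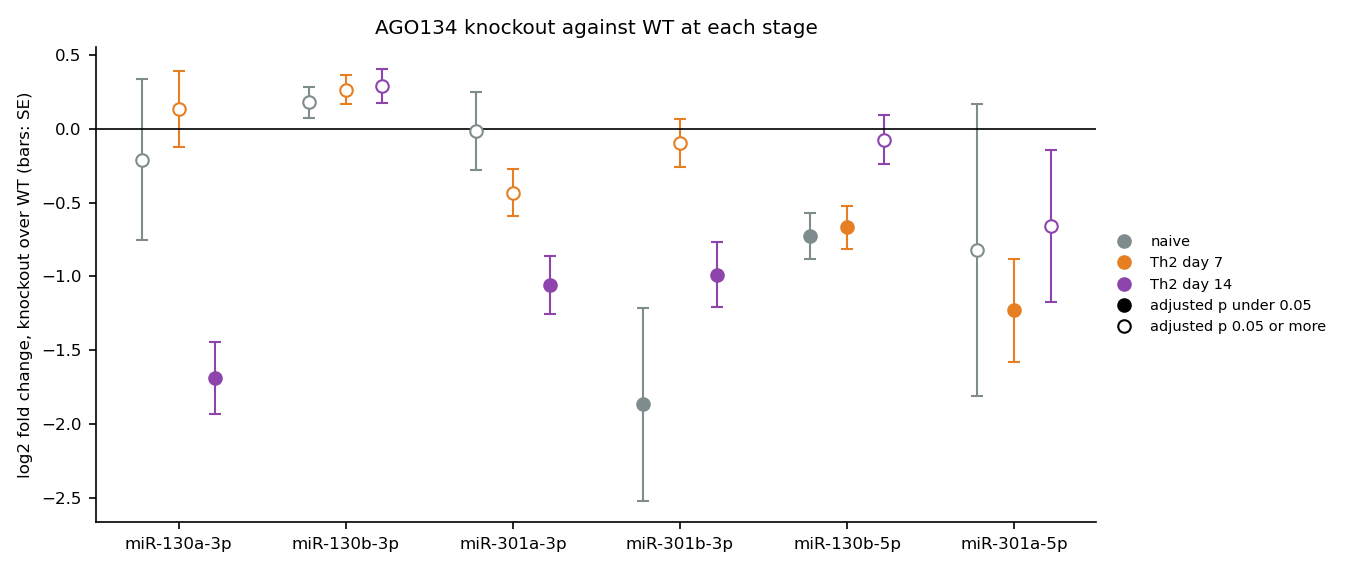
Log2 fold change, AGO134 knockout over WT, with SE bars, for each member in naive cells (grey), at day 7 (orange) and at day 14 (purple). Filled points passed an adjusted p under 0.05. At day 14 miR-130a-3p, miR-301a-3p and miR-301b-3p were at -1.69, -1.06 and -0.99 and miR-130b-5p at -0.07, whereas miR-130b-5p was at -0.73 and -0.67 in naive and day 7 cells; the naive point of miR-301b-3p rests on 3 knockout and 22 WT counts.

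Of the 5p strands, the usual passengers, miR-130b-5p fell in AGO134 knockout naive cells, among 10.2% of miRNAs called lower, and at day 7, among 5.76% called lower. In naive cells it stood at 801, 760.5, 991 and 629.9 CPM in knockout libraries and at 1363, 1298, 1356 and 1384 CPM in WT libraries. All 4 knockout libraries were below all 4 WT libraries (log2 fold change -0.73, SE 0.16, edgeR adjusted p = 0.00219). At day 7 it stood at 1888, 2470, 2371 and 1437 CPM in knockout libraries and at 3563, 3509, 2980.01 and 2982 CPM in WT libraries. Again the groups did not overlap (-0.67, SE 0.14, edgeR adjusted p = 0.00280). Both calls held under each of the other scalings, filters, tools and left-out libraries that were run. At day 14 the strand averaged 2490.3 ± 397 CPM in knockout cells and 2622 ± 65.7 CPM in WT cells (-0.07, edgeR adjusted p = 0.824). The day 14 effect minus the day 7 effect of this strand was not called (0.59, SE 0.22, edgeR adjusted p = 0.0698), though it was with every library thinned to 64264 counts (0.75, adjusted p 0.0275).

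miR-301a-5p was rare, and only its day 7 difference was called. It had 7, 7, 7 and 3 counts in AGO134 knockout libraries and 23, 28, 31 and 21 counts in WT libraries, without overlap (log2 fold change -1.23, SE 0.35, edgeR adjusted p = 0.0175). The strand passed the filter on low counts only through the WT libraries of this stage, where its counts were high. Its call is therefore not separate support for a decrease. Without knockout library 4, the shallowest of its group, the log2 fold change was -1.15 and was not called (adjusted p 0.0615). In naive cells it had 2 counts over all knockout libraries and 7 over all WT libraries, a ratio of 0.444 with an exact 95% interval of 0.0450 to 2.33. At day 14 it had 1, 2 and 9 counts in knockout libraries and 12, 6 and 8 in WT libraries. The day 14 value was -0.66, and -1.83 without knockout library 4, in neither case called (edgeR adjusted p = 0.386 and 0.0658).

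Because both strands of a hairpin are counted in 1 library, their ratio needs no scaling between libraries. The share of 5p in the 5p and 3p counts of miR-130b was 20.9%, 20.3%, 24.2% and 19.2% in naive AGO134 knockout libraries and 33.9%, 30.9%, 36.5% and 35.3% in naive WT libraries. The day 7 shares were 24.0%, 31.0%, 27.6% and 17.7% in knockout libraries and 40.2%, 40.5%, 38.4% and 37.1% in WT libraries. The day 14 shares were 29.2%, 32.3% and 36.2% in knockout libraries and 36.9%, 38.9% and 39.5% in WT libraries. At every stage all knockout libraries lay below all WT libraries.

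On the log2 scale the 5p to 3p ratio of miR-130b differed by -0.95 in naive cells and by -0.96 at day 7, each at an exact permutation p of 0.0286, two-sided, the smallest that 4 against 4 libraries allow. Adjusted over the 11 arm and cluster ratios tested, both are 0.0786 and miss the threshold. At day 14 the difference was -0.38, at an exact p of 0.1, the smallest that 3 against 3 allow. Without any 1 library the differences ran from -1.03 to -0.89 in naive cells, from -1.11 to -0.76 at day 7 and from -0.50 to -0.26 at day 14. Hairpins with both strands counted gave a background. In naive cells 10.5% of 57 hairpins had all knockout libraries below all WT libraries, at day 7 9.33% of 75 and at day 14 10.4% of 77. The median change over these hairpins was 0.18, 0.10 and 0.08, and that of miR-130b ranked 3 of 57 from the lowest in naive cells, 2 of 75 at day 7 and 14 of 77 at day 14.

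The 5p share of miR-301a was lower than that of miR-130b. At day 7 it was 4.32% ± 0.569 in AGO134 knockout libraries and 7.52% ± 1.95 in WT libraries, without overlap. The log2 ratio differed by -0.72 at an exact permutation p of 0.0286, and 0.0786 adjusted over the 11 ratios. At day 14 the shares were 5.11% ± 4.47 in knockout libraries and 4.32% ± 0.962 in WT libraries and overlapped. The naive shares rest on 2 knockout and 7 WT counts of the 5p strand.

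**Figure D3:**
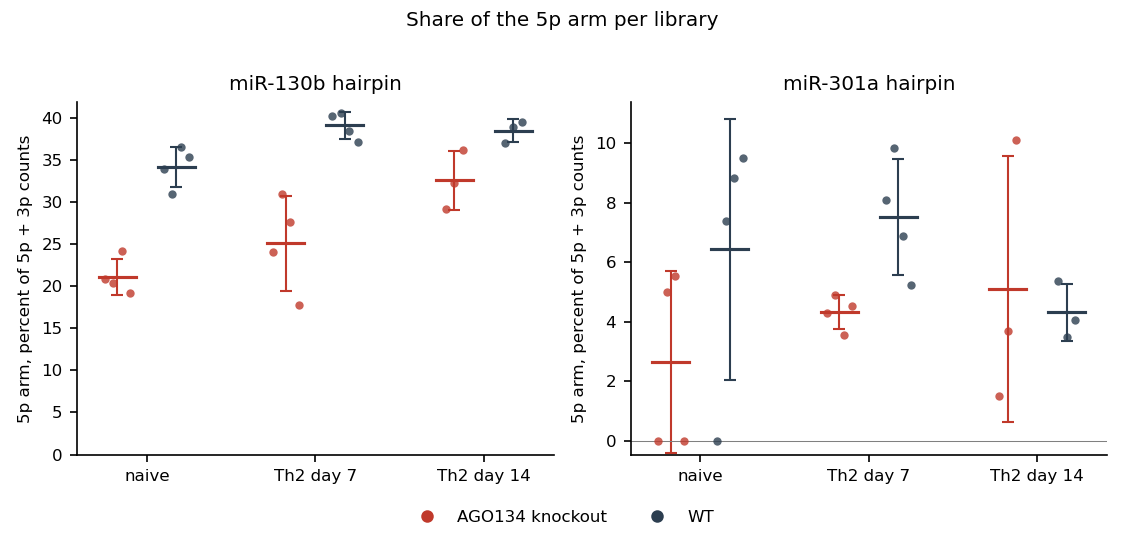
Share of the 5p strand in the summed 5p and 3p counts of the miR-130b and miR-301a hairpins, in percent, per library of the AGO1/3/4 experiment (points), with mean and SD. AGO134 knockout (red) stands left of WT (dark blue). For miR-130b the naive knockout libraries lie at 19.2% to 24.2% and the naive WT libraries at 30.9% to 36.5%.

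Mir301b and Mir130b are neighbours, and their 3p strands were compared as a ratio within each library. In naive cells miR-301b-3p made up 0.155% ± 0.207 of the summed counts of the pair in AGO134 knockout libraries and 0.844% ± 0.437 in WT libraries (log2 ratio difference -1.45, exact permutation p = 0.0857). Its share at day 7 was 6.30% ± 0.752 in knockout libraries and 7.93% ± 1.02 in WT libraries (-0.35, exact permutation p = 0.0857). The day 14 share was 2.72% ± 0.580 in knockout libraries and 6.25% ± 0.260 in WT libraries, without overlap. That log2 difference of -1.26 had an exact permutation p of 0.1, the smallest that 3 against 3 allow, and the adjusted p of all 3 stages was 0.138.

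The 3p strands were also summed, and the share of each in the sum was taken. The summed 3p level in naive cells was 3075 ± 209.5 CPM in AGO134 knockout cells and 2767 ± 233 CPM in WT cells. At day 7 it was 7422 ± 524 CPM in knockout cells and 6695 ± 146 CPM in WT cells, and at day 14 5734 ± 147 CPM in knockout cells and 5569 ± 138 CPM in WT cells. With plain library sizes the knockout mean was the lower one at each stage. These plain means were 2599 CPM in knockout and 2889.9 CPM in WT naive cells, 7104 CPM in knockout and 7909 CPM in WT cells at day 7, and 5499 CPM in knockout and 5951 CPM in WT cells at day 14. Shares of the sum use no scaling. At day 14 miR-130b-3p took 89.6% ± 1.08 of it in knockout cells and 75.3% ± 1.90 in WT cells, while miR-130a-3p took 2.28% ± 0.374 in knockout cells and 7.54% ± 1.80 in WT cells. miR-301a-3p took 5.65% ± 0.412 in knockout cells and 12.1% ± 0.665 in WT cells. These sums and shares carry no test.

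**Figure D4:**
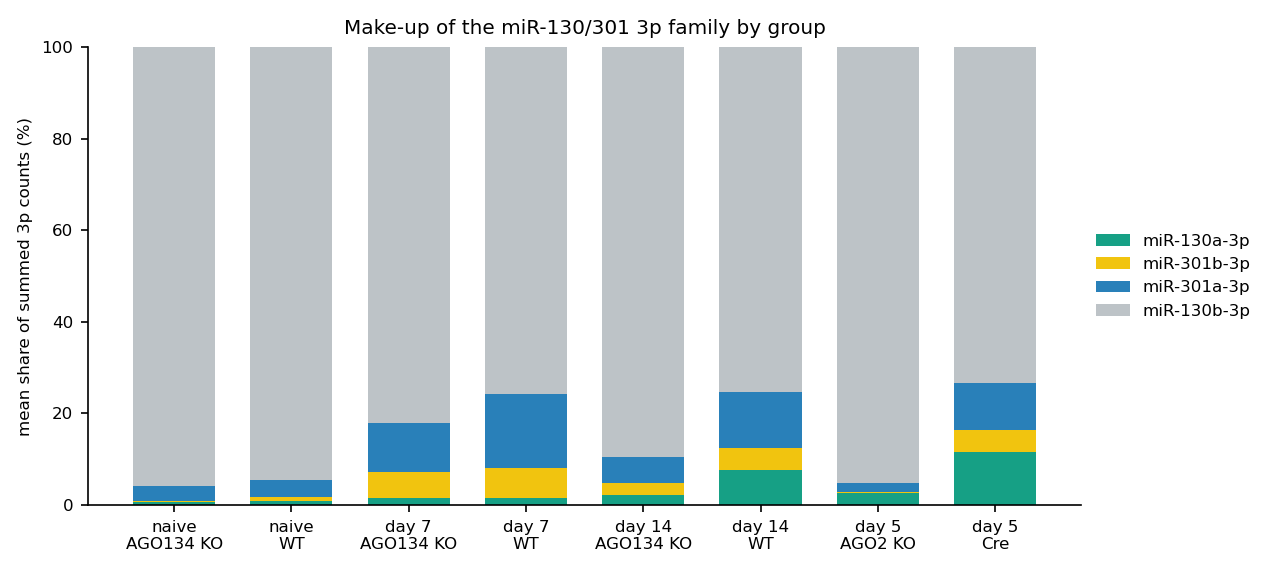
Mean share of each 3p strand in the summed 3p counts of the family, in percent, for the 6 groups of the AGO1/3/4 experiment and the 2 Th2 groups of the AGO2 experiment, each knockout left of its control. miR-130b-3p held 89.6% in day 14 AGO134 knockout cells and 75.3% in day 14 WT cells, and 95.2% in AGO2 knockout Th2 cells and 73.5% in Cre Th2 cells.

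The AGO2 experiment asked the same of AGO2, at a lower depth. In its Th2 cells at day 5, miR-130a-3p, miR-301a-3p and miR-301b-3p were scarce in AGO2 knockout libraries, while the levels of both strands of miR-130b overlapped between the genotypes. miR-130a-3p had 1, 1, 0 and 4 counts in AGO2 knockout libraries and 29, 18 and 20 counts in Cre libraries. miR-301a-3p had 1, 0, 3 and 2 counts in knockout libraries and 17, 22 and 20 in Cre libraries. miR-301b-3p had 0, 0, 0 and 1 counts in knockout libraries and 8, 11 and 9 in Cre libraries. For each of these 3, every knockout library lay below every Cre library in CPM. The share of all miRNAs that separated in this way was not counted. With the Th2 groups fitted alone, 27.5% of 153 tested miRNAs were called lower. The knockout libraries were also shallower, with 11218 to 40720 miRNA counts against 39794 to 58357 in Cre libraries. The miRNAs known to be lost on activation summed to 113038 to 140915 CPM in knockout libraries and 57746 to 88536 CPM in Cre libraries, without overlap, and of the 8 tested 4 were called higher and 1 lower. Of the activation-induced list 8 were tested, with 1 called higher and 1 lower. Over all 98 tested miRNAs 44.9% were called in either direction, and the part of either list was not tested. Set against library totals, the ratio of knockout to Cre counts was 0.120 for miR-130a-3p (exact 95% interval 0.0426 to 0.275), 0.136 for miR-301a-3p (0.0481 to 0.315) and 0.0479 for miR-301b-3p (0.00117 to 0.290), intervals that cover counting error only.

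Fitted over all 4 groups of the AGO2 experiment, the filter on low counts kept 98 miRNAs, among them miR-130b-3p and miR-130b-5p but no other member. 0 of these 2 were called, where 44.9% of the 98 were called in either direction; 0 had an unadjusted p under 0.05, and DESeq2 called 0. miR-130b-3p stood at 1698, 2892, 1741 and 2042 CPM in AGO2 knockout libraries and at 2148, 1945 and 2941 CPM in Cre libraries, which overlapped (log2 fold change -0.21, SE 0.28, edgeR adjusted p = 0.547). miR-130b-5p stood at 722, 394, 806 and 661 CPM in knockout libraries and at 565, 398 and 767 CPM in Cre libraries, which also overlapped (0.29, SE 0.36, edgeR adjusted p = 0.513). With scaling to the STD entries these values were -1.89 and -1.36 and both were called, while the median of all tested miRNAs moved to -1.59.

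With the 2 Th2 groups fitted alone, the filter also kept miR-130a-3p and miR-301a-3p, and both were called lower, among 27.5% of 153 tested miRNAs called lower. Their log2 fold changes were -2.77 (SE 0.56, edgeR adjusted p = 0.000444) and -2.59 (SE 0.50, edgeR adjusted p = 0.000274). Both strands passed that filter only through the Cre libraries, where their counts were high. Their calls are therefore not separate support for the decrease. miR-301b-3p entered only where miRNAs with a mean of at least 10 CPM were kept or no filter was used. It was then called lower (edgeR adjusted p = 0.00277 and 0.00130). That mean was reached only through the Cre libraries, and the knockout libraries held 1 count of the strand. Its calls are therefore not separate support either. Within each library, miR-301b-3p made up 0.243% ± 0.485 of its summed counts with miR-130b-3p in AGO2 knockout libraries and 6.16% ± 1.13 in Cre libraries. The log2 ratio differed by -2.43 at an exact permutation p of 0.0286, the smallest that 4 against 3 allow. Adjusted over the 11 ratios this p was 0.0786. Knockout libraries D, E and F held 0 counts of miR-301b-3p, so their ratios rest on the pseudocount of 0.5. With a pseudocount of 1 the difference was smaller and its p was no longer the smallest possible, as given below. The 5p share of miR-130b was 29.9%, 12.0%, 31.6% and 24.4% in AGO2 knockout libraries and 20.8%, 17.0% and 20.7% in Cre libraries, which overlapped (0.38, exact permutation p = 0.457).

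**Figure D5:**
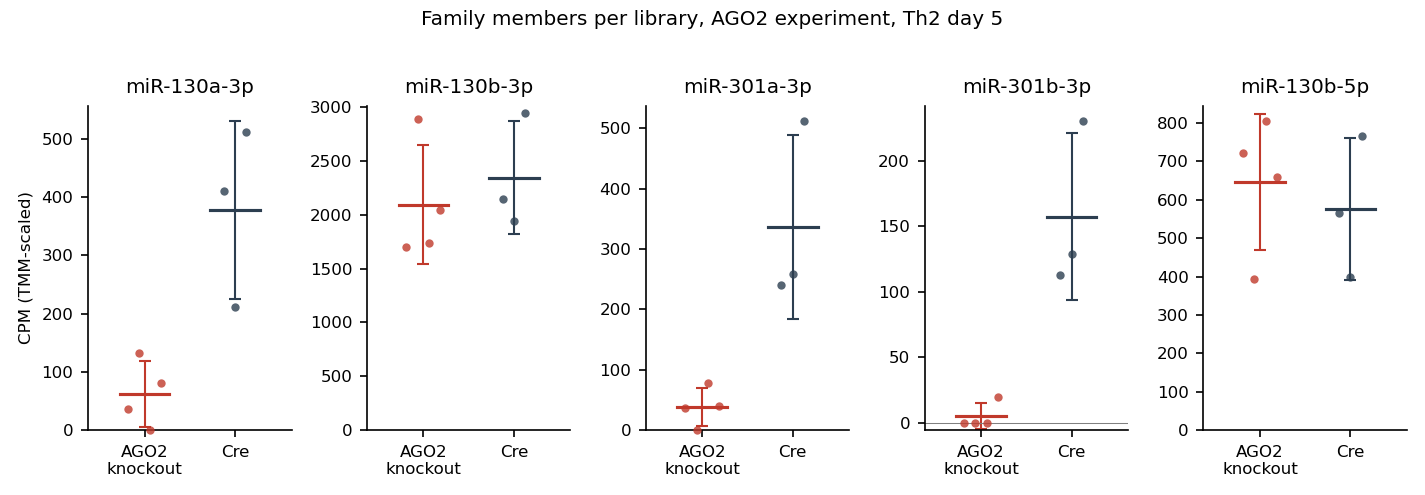
CPM (TMM-scaled) of 5 family members in each Th2 day 5 library of the AGO2 experiment, AGO2 knockout (red) left of Cre (dark blue), with mean and SD. miR-130a-3p averaged 61.9 CPM in knockout cells and 377 CPM in Cre cells, whereas miR-130b-3p averaged 2093 CPM in knockout cells and 2345 CPM in Cre cells.

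The AGO2 knockout effect at day 5 was set against the AGO134 knockout effect at day 7 in 1 fit of all 36 libraries, where the experiment, the day and the genes removed cannot be told apart. The AGO2 effect was lower for miR-130a-3p (difference of log2 fold changes -2.90, SE 0.62, edgeR adjusted p = 0.000306), for miR-301a-3p (-2.15, SE 0.56, edgeR adjusted p = 0.00271) and for miR-301b-3p (-3.93, SE 0.90, edgeR adjusted p = 0.000716), among 13% of 376 miRNAs called lower. It was higher for miR-130b-5p (1.09, SE 0.31, edgeR adjusted p = 0.00540), among 10.1% called higher, and that difference was -0.076 with scaling to the STD entries. miR-130b-3p was not called. Library G held 4 of the 6 counts of miR-130a-3p in AGO2 knockout cells and the 1 count of miR-301b-3p. Without it the difference of miR-130a-3p was -3.79 and was still called, and miR-301b-3p had 0 counts left in that group. No AGO2 group at day 14 was analysed here, so the day 14 AGO134 effect was not set against one.

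Naive cells of the AGO2 experiment allowed few statements. miR-130b-3p had 9, 7, 6 and 8 counts in naive AGO2 knockout libraries and 7, 2 and 1 in naive Cre libraries (log2 fold change 0.01, SE 0.55, edgeR adjusted p = 0.985). miR-130b-5p had 2, 2, 1 and 0 counts in naive knockout libraries and 0 in every naive Cre library. 0 of the 2 tested members were called, against 9.18% of tested miRNAs in either direction, with 0 at an unadjusted p under 0.05 and 0 by DESeq2. miR-130a-3p, miR-301a-5p and miR-301b-3p had 0 counts in all 7 naive libraries. 0 counts allow up to 67.8 CPM over the naive knockout group and 263 CPM over the naive Cre group, above the naive WT levels of these strands in the AGO1/3/4 experiment.

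Both tested members were higher in Th2 than in naive cells of each genotype of the AGO2 experiment. Of these, miR-130b-5p passed the filter only through Th2 libraries, as no naive library held more than 2 counts of it. Its calls are therefore not separate support for a rise. In AGO2 knockout cells miR-130b-3p averaged 2093 ± 554 CPM in Th2 and 981 ± 330.5 CPM in naive libraries (log2 fold change 1.14, SE 0.34, edgeR adjusted p = 0.00975), and miR-130b-5p 646 ± 178 CPM in Th2 and 141 ± 103 CPM in naive libraries (2.22, SE 0.61, edgeR adjusted p = 0.00717), among 37.8% of miRNAs called higher. In Cre cells miR-130b-3p averaged 2345 ± 526.4 CPM in Th2 and 1108 ± 840.3 CPM in naive libraries (1.37, SE 0.47, edgeR adjusted p = 0.0195), among 36.7% called higher. miR-130b-5p was called as well. It had 0 counts over the naive Cre group, and the exact interval of its Th2 to naive ratio per library total began at 2.05. miR-130a-3p, miR-301a-3p and miR-301b-3p also had 0 counts in that group. Their intervals in Cre cells began at 1.31, 1.15 and 0.526, so that of miR-301b-3p did not exclude a lower level in Th2. These intervals cover counting error only. The call of miR-130b-3p ended in knockout cells without naive library D, E or F or Th2 library E (0.66 to 0.81, adjusted p 0.0954 to 0.104), and with DESeq2, its size factors, either other filter or the groups fitted alone (adjusted p 0.0539 to 0.0979). That of miR-130b-5p in knockout cells was 1.59 without naive library G, and the strand did not pass the filter without naive library D or Th2 library D, F or G. In Cre cells the call of miR-130b-3p ended without naive library A (adjusted p 0.101) or C (adjusted p 0.168). That of miR-130b-5p in Cre cells ended without naive library A (adjusted p 0.102), and without naive Cre libraries B and C together miR-130b-3p was not called in either genotype (0.66 and 1.26 in knockout and Cre cells, adjusted p 0.104 and 0.0888).

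Across the 22 libraries of the AGO1/3/4 experiment, each 3p strand was set beside the 310 other miRNAs with a mean of at least 50 CPM. miR-130a-3p ran most closely with miR-21c, miR-148a-3p and miR-501-3p (Pearson r of log2 CPM 0.929, 0.913 and 0.906). miR-130b-3p was nearest to miR-1968-5p, miR-21a-5p and miR-363-3p (0.952, 0.9505 and 0.949), and miR-301a-3p to miR-5121, miR-1949 and miR-1983 (0.955, 0.952 and 0.948). miR-301b-3p was nearest to miR-421-3p, miR-700-5p and miR-186-5p (0.953, 0.942 and 0.937). Among the members, miR-301a-3p and miR-301b-3p ran most alike (0.904), and miR-130a-3p and miR-301a-5p least (0.537). All these libraries share the change from naive to Th2 cells and differ in depth with genotype, so the values describe this set of libraries. The difference of the AGO134 knockout effects at day 14 and in naive cells was called for 0 members, with 3 at an unadjusted p under 0.05 and 1 called by DESeq2, miR-301a-3p, against 6.81% of tested miRNAs.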

How the data were processed

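Small RNA was sequenced in 36 libraries, and 1 file per library holds whole-number counts per mature miRNA entry, not normalized, per the file headers. The submitters' processing notes name GRCm38. Aligner, counter and miRNA release were not given in the sources used here, nor was how reads matching several entries were counted. The labels call the reads single-end and the series text paired-end.

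The deposited counts hold 2119 entries, of which 9 are STD entries that name no miRNA. These 9 were left out of library sizes and tests, except as an alternative scaling. Entries of 1 mature name were reduced to 1966 names; each member has 1 entry. Members were found by name. The members and the gene and marker lists were chosen with earlier results of these data known. The lists of activation-induced and lost miRNAs share 4 of the 6 T cell markers.

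The main test was edgeR 4.0.16 (R 4.3.3), quasi-likelihood, with TMM scaling, filterByExpr at a minimum count of 10 and Benjamini-Hochberg adjustment over all tested miRNAs, with 1 fit per experiment; DESeq2 1.42.0 was an alternative. A level is TMM CPM. Strand and cluster ratios used log2 counts with a pseudocount of 0.5 and two-sided exact permutation tests. Count ratios carry exact binomial 95% intervals, and these and the floors of 3 counts cover counting error only. Named miRNAs are the 6 members, the other strands of their hairpins, miRNAs with their seed, and for each 3p strand the 3 miRNAs with the highest r over the 22 libraries; marker names stand beside their lists. Replicate numbers were not treated as pairs.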

Additional observations from a re-analysis of the deposited data

Results flagged for a closer look

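In naive WT cells miR-301b-3p was at 5.32 CPM in library 4, which is 1 count, against 26.5 to 29.8 CPM in the other libraries of its group. At day 7 miR-301a-5p was at 26.6 CPM in AGO134 knockout library 4, which is 3 counts, below 37.8 to 38.3 CPM in the rest of its group. A gap this wide for 1 library was looked for in 34 sets of libraries, where chance gives about 1 in 20.

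The AGO134 knockout effect at day 14 differed from that at day 7 for miR-130a-3p, by -1.83, and for miR-301b-3p, by -0.89, both on the log2 scale and tested as a difference of effects. The call of miR-301b-3p did not hold without several single libraries or in several other settings, such as the replicate block (edgeR adjusted p = 0.0699). The AGO2 knockout effect at day 5 differed from the AGO134 knockout effect at day 7 for miR-130a-3p (-2.90), miR-301a-3p (-2.15), miR-301b-3p (-3.93, with 1 count in the AGO2 knockout group) and miR-130b-5p (1.09). Experiment, day and depth differ with the removed genes in that comparison and cannot be told apart.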

How the results depend on the processing

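Counts below are members called, with the main count in brackets. With DESeq2 size factors 1 [2] was called in naive AGO134 knockout against WT cells, 1 [0] for the day 14 minus naive difference and 1 [2] in AGO2 knockout Th2 against naive cells, and miR-301a-3p in naive cells was at 0.026. DESeq2 gave 1 [0] for the day 14 minus naive difference, 1 [2] in AGO2 knockout Th2 against naive cells and 0.026 for miR-301a-3p in naive cells. With library size alone miR-130b-3p had -0.12 in naive cells, -0.038 at day 7 and -0.41 in naive AGO2 knockout cells, miR-130a-3p had -0.16 at day 7, and 1 [2] was called for day 14 minus day 7. With STD scaling miR-130b-3p had -0.59, -0.36 and -0.15 over the AGO134 stages and -0.19 in naive AGO2 knockout cells. There miR-130a-3p had -0.47 at day 7, miR-130b-5p -1.36 in AGO2 knockout Th2 cells and -0.076 for the AGO2 minus AGO134 effect. The counts were 4 [2] at day 7, 1 [2] for day 14 minus day 7 and 2 [0] in AGO2 knockout Th2 cells. Over all 382 tested miRNAs STD scaling called 129 [55] at day 7 and 15 [46] for day 14 minus day 7. In AGO2 knockout Th2 cells it called 69 [44] of 98. DESeq2 size factors called 66 [70] of the 382 in naive cells and 28 [26] for day 14 minus naive. In AGO2 knockout Th2 against naive cells they called 45 [50] of 98. DESeq2 called 31 [26] for day 14 minus naive and 43 [50] of the 98. Library size alone called 40 [46] for day 14 minus day 7.

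With no filter 1 [2] was called in naive AGO134 cells, 1 [2] for day 14 minus day 7, 3 [0] in AGO2 knockout Th2 cells, 4 [2] in Cre Th2 against naive cells and 1 [2] in AGO2 knockout Th2 against naive cells. Over all 1211 miRNAs tested with no filter, 51 were called in naive AGO134 cells and 41 for day 14 minus day 7. Of 620 in the AGO2 experiment, 76 were called in AGO2 knockout Th2 cells. Against naive cells, 74 were called in Cre and 45 in AGO2 knockout Th2 cells. A mean of at least 10 CPM gave 1, 1, 3 and 1 for these comparisons without the Cre one. Over all miRNAs it gave 51 and then 38 of 479, and 79 and then 53 of 364. Groups fitted alone gave 1 [2] in naive AGO134 cells, 2 [0] for day 14 minus naive, 2 [0] in AGO2 knockout Th2 cells and 0 [2] against naive ones. Over all miRNAs that setting called 52 of 280 in naive AGO134 cells and 35 of 366 for day 14 minus naive. It called 79 of 153 in AGO2 knockout Th2 cells and 33 of 67 against naive ones. The cause of the changed member counts was not tested, beyond the number of miRNAs that each filter lets in.

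Settings chosen after seeing the data were naive Cre libraries B and C left out, with 2 [0] in AGO2 knockout Th2 cells, 1 [2] in Cre and 1 [2] in AGO2 knockout Th2 against naive cells, and thinning to 64264 counts. Thinned, 1 [2] was called in naive cells and 1 [2] at day 7. Counts were 2 [5] for WT day 14 against day 7 and 1 [0] for day 14 minus naive. Of all 286 miRNAs tested after thinning, 53 were called in naive cells and 28 at day 7. The WT day 14 against day 7 comparison had 125 and the day 14 minus naive difference 27. After thinning miR-130b-5p at day 14 was at 0.064 and miR-130a-3p in knockout day 14 against day 7 at -0.056. With a pseudocount of 1 the miR-301a strand ratio had 0.23 in naive cells and -0.64 at day 7 (exact p = 0.0857), and the cluster ratio -1.66 in AGO2 knockout Th2 cells (exact p = 0.0571).

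Leaving out 1 library gave 1 to 2 calls in naive AGO134 cells, 1 to 3 at day 7, 1 to 3 for day 14 minus day 7, 0 to 1 for day 14 minus naive, and 0 to 2 in Th2 against naive cells of Cre and of AGO2 knockout. Values ran from -0.15 to 0.075 for miR-301a-3p and -0.60 to 0.18 for miR-130a-3p in naive cells, -0.051 to 0.30 for miR-130a-3p at day 7, -0.20 to 0.020 for miR-130b-5p at day 14, -0.0033 to 0.34 for miR-130a-3p in knockout day 14 against day 7, and -0.16 to 0.37 for miR-130b-3p in naive AGO2 knockout cells. Strand ratios ran from -1.11 to -0.76 for miR-130b at day 7, and for miR-301a from -0.60 to 0.29 in naive cells, -0.89 to -0.57 at day 7 and -0.51 to 0.67 at day 14. Cluster ratios ran from -0.45 to -0.30 at day 7 and from -2.71 to -2.18 in AGO2 knockout Th2 cells. The day 14 AGO134 count of 3 and both day 7 against naive counts of 6 did not change. Those counts of 6 include members that passed the filter only through Th2 libraries. Shares over all miRNAs are not given for fits with libraries left out.

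Same-numbered libraries did not deviate together in every pair, so the numbers were not taken as pairs: r was -0.282 to 0.411 over 10 pairs across genotypes, of which 5 were over 0.1, and -0.375 to 0.318 over 20 pairs across stages, of which 4 were. In the AGO2 experiment r was -0.484 to 0.136 over 7 pairs, of which 1 was. With the replicate block, day 14 minus day 7 had 1 [2] call, and 44 [46] of all 382 tested miRNAs were called. Depth limits the AGO2 experiment, where 4 of the 6 members did not pass the main filter.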
